A study of Mus musculus with 3 samples.

Results

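The genes described here are 33 genes of the interferon response and of MHC class I antigen presentation. They were measured in follicle-associated epithelium, the epithelial sheet that covers the lymphoid follicles of Peyer's patches in the small intestine and contains the antigen-sampling M cells. A gene was taken in when it had a probe set whose only symbol in the platform annotation was that gene, and it was represented by its brightest probe set over the 3 arrays. This found 31 of the 33 genes among 18193 named genes. Intensities of Isg15 and Ifi44 were not analysed here, but both are counted among the promoters below. The 31 genes had 54 probe sets.

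RNA came from 2 samples of RBP-J depleted mice (VillinCre-Rbpj flox/flox) and from 1 sample of wild type mice, all untreated and on the C57BL/6 strain. RBP-J binds DNA and carries the signal of cleaved Notch receptors to its target genes, and Villin-driven Cre is active in the intestinal epithelium and not in the lymphocytes beneath it. The labels give no age and do not say whether a sample was 1 animal or a pool, or whether the depleted samples are different animals, and their spread may therefore be technical. Each sample was hybridised to 1 Affymetrix array, and intensities are given in multiples of the array's median. With 1 wild type array every difference below leans on that array, and the differences of both depleted arrays share it.

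Cells that sense viral nucleic acid or bacteria release interferons, which act through surface receptors and a complex that holds STAT2 and IRF9 to switch on a large set of antiviral genes. Interferon gamma acts in part through IRF1 and also raises the guanylate-binding proteins, the immunoproteasome, the peptide transporter and the MHC class I chains, through which cells show peptides to CD8 T cells. In the intestine, epithelial cells respond strongly to interferon lambda, and the commensal flora keeps some of this programme switched on.

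Across the 28 members bright enough to test, 0 were called in the depleted arrays against wild type by limma at an adjusted p under 0.05, where 0.0841% of all 11885 genes tested were called. No member had an unadjusted limma p under 0.05 either, against 2.27% of all genes, and the smallest was 0.0505. Wild type lay above both depleted arrays for 10 of the 28 members, where this held for 19.5% of all genes tested, and below both for 7, where it held for 39%. The negative regulator Usp18, the class I transactivator Nlrc5 and the antiviral genes Ifit2 and Stat2 had the lowest log2 differences, between -0.99 and -0.66, and Rsad2, Oas1a and Irf7 the highest, between 0.43 and 0.66. All 3 MHC class I chains and all 6 peptide supply genes read higher in the second depleted array than in the first, as did 66.9% of all genes.

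The arrays differed in ways that bear on these values. Over all genes tested, the log2 differences from wild type had a median of -0.003 in the first depleted array but of 0.22 in the second, and the 75th percentile of intensity was 4.05 and 4.79 in the depleted arrays against 4.19 in wild type. Log2 differences below are given as measured, with this shift still in them, so a gene at 0.22 in the second depleted array is at the level of the median gene. The ratio of 3' to 5' probe sets of Gapdh, a sign of RNA quality, was 2.28 and 1.54 against 1.83 in wild type. Xist, which marks female cells, read 42.8 and 43.4 in the depleted arrays and 0.297 in wild type, so that genotype and sex cannot be told apart. Rbpj read 2.72 and 5.74 against 7.15 (log2 difference -0.81, SE 0.49, limma adjusted p = 0.9997). The epithelial genes Epcam and Vil1 read 129 and 153, and 85.3 and 78.6, in the depleted arrays, against 109 and 70.7 in wild type, so general epithelial markers were present in all 3 arrays. The follicle epithelium and M cell genes Spib, Ccl20 and Gp2 read 33.8 and 67.6, 45.2 and 74.6, and 9.90 and 32.6 in the depleted arrays, against 38.9, 49.9 and 19.8 in wild type. These 3 were lower in the first depleted array, but the list as a whole was not. Of its 9 genes tested, 5 were higher in both depleted arrays and 0 lower in both, against 39% and 19.5% of all genes.

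Promoters are shown for 7 members so that the sequences on which interferon factors are known to act can be seen beside the values below. RefSeq promoters of build GRCm38.p6, which run from 250 bases before to 50 bases after the gene's start, were given for 25 of the 33 genes. Capitals mark the core of the interferon-stimulated response element, GAAA followed by 2 bases of any kind and GAAA again, or of the gamma-activated site, TTCNNNGAA, each searched on both strands. Where 2 matches overlap, as in Oas1a, the capitals run together. Rsad2 lies at chr12:26456403-26456702 on the minus strand, Oas1a at chr5:120907476-120907775 on the minus strand, Ifit3 at chr19:34583279-34583578 on the plus strand and Stat2 at chr10:128270248-128270547 on the plus strand. Igtp lies at chr11:58199306-58199605, B2m at chr2:122147437-122147736 and Tap1 at chr17:34187306-34187605, all on the plus strand.
Rsad2: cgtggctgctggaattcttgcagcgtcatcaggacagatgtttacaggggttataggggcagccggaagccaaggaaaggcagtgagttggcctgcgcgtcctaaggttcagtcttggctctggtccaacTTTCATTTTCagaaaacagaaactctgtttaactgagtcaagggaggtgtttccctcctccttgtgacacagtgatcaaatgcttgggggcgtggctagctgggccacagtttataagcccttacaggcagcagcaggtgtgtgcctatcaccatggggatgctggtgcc
Oas1a: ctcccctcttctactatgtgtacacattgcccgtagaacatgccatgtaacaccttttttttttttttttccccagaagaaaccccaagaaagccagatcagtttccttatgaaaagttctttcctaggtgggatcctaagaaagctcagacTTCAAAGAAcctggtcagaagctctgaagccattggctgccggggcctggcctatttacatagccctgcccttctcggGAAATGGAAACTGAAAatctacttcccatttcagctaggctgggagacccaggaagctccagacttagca
Ifit3: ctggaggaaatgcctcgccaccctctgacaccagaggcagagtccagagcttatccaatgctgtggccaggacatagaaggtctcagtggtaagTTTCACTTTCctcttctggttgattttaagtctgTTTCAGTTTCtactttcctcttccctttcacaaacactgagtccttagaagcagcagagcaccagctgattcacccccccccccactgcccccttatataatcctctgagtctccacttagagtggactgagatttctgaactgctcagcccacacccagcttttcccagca
Stat2: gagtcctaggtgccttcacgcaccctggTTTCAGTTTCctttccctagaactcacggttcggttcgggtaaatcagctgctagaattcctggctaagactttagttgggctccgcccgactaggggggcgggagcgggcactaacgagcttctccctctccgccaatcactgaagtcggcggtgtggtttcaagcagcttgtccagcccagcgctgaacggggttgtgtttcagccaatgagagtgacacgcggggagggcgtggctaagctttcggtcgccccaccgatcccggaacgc
Igtp: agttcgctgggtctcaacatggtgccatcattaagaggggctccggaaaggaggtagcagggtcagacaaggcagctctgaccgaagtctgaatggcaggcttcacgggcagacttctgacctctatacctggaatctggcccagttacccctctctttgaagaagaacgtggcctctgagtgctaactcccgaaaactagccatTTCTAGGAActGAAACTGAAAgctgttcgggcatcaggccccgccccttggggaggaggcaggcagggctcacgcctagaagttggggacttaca
B2m: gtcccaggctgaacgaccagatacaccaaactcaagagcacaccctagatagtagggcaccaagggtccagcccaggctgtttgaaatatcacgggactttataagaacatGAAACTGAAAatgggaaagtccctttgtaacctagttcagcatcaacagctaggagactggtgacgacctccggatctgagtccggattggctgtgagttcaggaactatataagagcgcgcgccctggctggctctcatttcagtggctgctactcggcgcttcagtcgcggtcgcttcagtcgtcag
Tap1: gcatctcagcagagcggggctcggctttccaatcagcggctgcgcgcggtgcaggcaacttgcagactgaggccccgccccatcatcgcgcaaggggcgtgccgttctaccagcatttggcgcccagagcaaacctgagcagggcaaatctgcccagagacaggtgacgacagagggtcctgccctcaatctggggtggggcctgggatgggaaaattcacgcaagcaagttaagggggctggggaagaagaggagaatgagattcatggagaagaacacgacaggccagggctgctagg

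The response element core was found in the promoters of 12 of the 25 genes, or 48%, and in 3.99% of all 27025 genes with a promoter. Counted from the gene's start, its first base lay at position -34 in Igtp, -120 in Rsad2, -139 in B2m and -222 in Stat2, and at -20 and -14 in Oas1a, where the matches overlap. Ifit3 held the core at -156 and -122. The gamma-activated site core was found in 6 of 25, or 24%, against 9.55% of all, and TGGGAA, the core bound by RBP-J, in 11 of 25, or 44%, against 28.3%. In Psmb8 the last of these lies within a gamma-activated site match. Genes with the response element were spread over the measured range. Stat2, Igtp and Ifit3 were among the lower members, and Rsad2 and Oas1a among the highest. B2m, Ifih1, Bst2, Gbp2, Socs1 and Ifit1 lay between them. Of the lowest members, Usp18 and Nlrc5 had no promoter given, and Ifit2 held no response element core. The Tap1 window holds neither interferon core in these letters. It shares 275 bases with that of Psmb9, which is read from the opposite strand, chr17:34187306-34187580, so the pair starts from 1 stretch of DNA. Matches describe these letters only and say nothing of binding in this tissue.

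**Figure D1:**
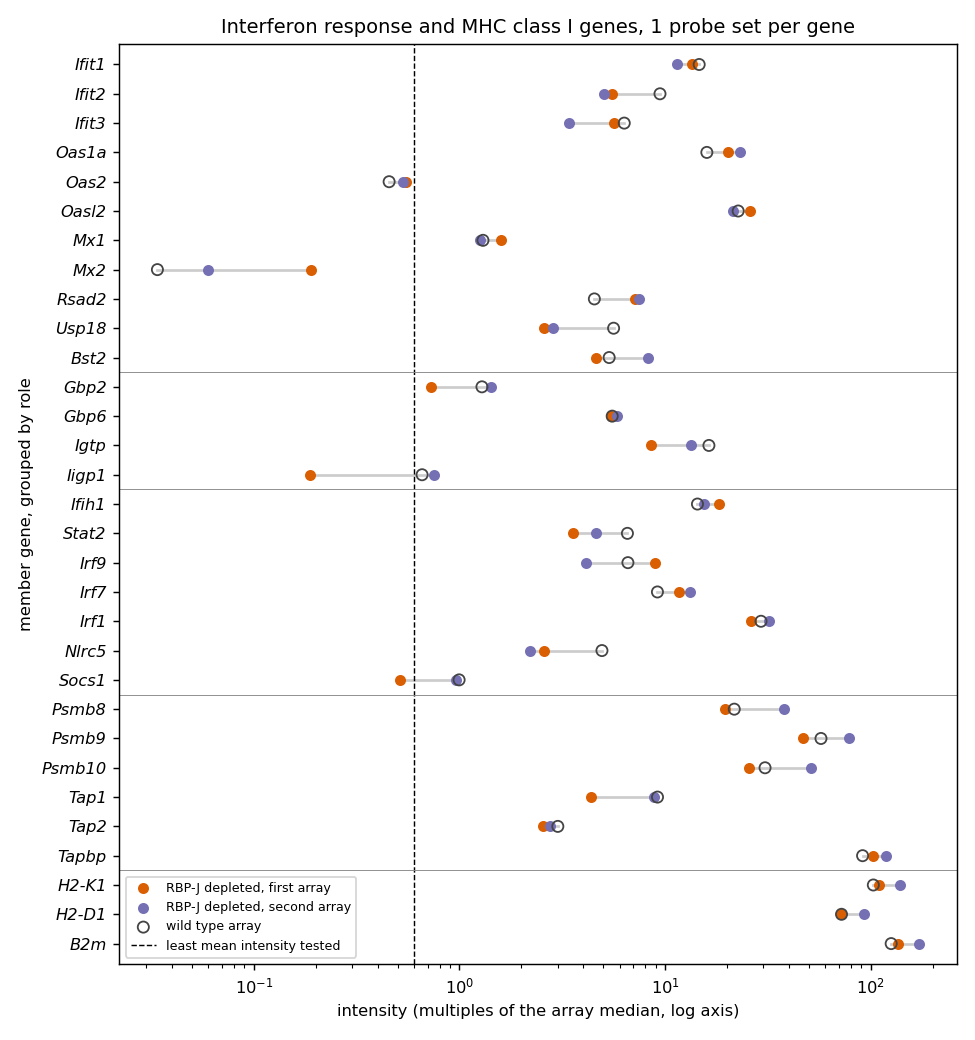
Intensity of each measured member, in multiples of the array median on a log axis, in the first (orange) and second (purple) RBP-J depleted array and in wild type (open circle), 1 probe set per gene; the dashed line marks the least mean intensity tested, 0.598. Usp18, Nlrc5 and Ifit2 stand left of wild type in both depleted arrays, and the 3 genes Oas2, Mx2 and Iigp1 average under the line.

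Among the antiviral effectors, the 3 Ifit genes measured, which encode proteins that bind foreign RNA and lie on chromosome 19, were lower in both depleted arrays than in wild type. Ifit2 read 5.53 and 5.04 in the depleted arrays against 9.44 in wild type. The log2 difference was -0.81 (SE 0.48, 95% interval -1.76 to 0.14, limma adjusted p = 0.9997), which did not pass the test. Ifit2 stands apart from its neighbours in the size of the difference in the first depleted array. Ifit3 read 5.64 and 3.42 against 6.33 in wild type, so its difference was mostly that of the second depleted array, at -0.84 against -0.16 in the first. Ifit1 read 13.5 and 11.4 against 14.6, with log2 differences of -0.12 and -0.35. All 3 genes kept this order under the 3 other scalings, which lower the second depleted array as a whole. The other settings tried could not change it, since pseudocounts keep the order of the arrays and each gene has 1 probe set.

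Usp18, the protease that strips ISG15 from proteins and damps signalling at the interferon alpha and beta receptor, had the lowest difference of all members. It read 2.58 and 2.85 in the depleted arrays and 5.61 in wild type, about the same distance in both. The log2 difference was -0.99 (SE 0.50, 95% interval -1.98 to 0.002, limma adjusted p = 0.9997). In the first depleted array it was more than 2-fold lower, at -1.05, and in the second slightly less, at -0.92. Usp18 has 1 probe set here, so no second measurement bears on it.

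Rsad2, which encodes viperin, an enzyme that makes a chain-terminating nucleotide against viruses, had the highest difference of the members tested. It read 7.14 and 7.46 in the depleted arrays against 4.53 in wild type, and the depleted arrays lay close together (log2 difference 0.66, SE 0.49, limma adjusted p = 0.9997). Its other probe sets did not go the same way. One gave 0.49 and 0.38, and the dimmest gave -0.69 and -0.73, and with the mean over the 3 probe sets the log2 difference was 0.13. The direction of Rsad2 therefore depends on which probe set is read.

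The oligoadenylate synthetases, which make the activator of RNase L, gave no shared direction. Oas1a read 20.1 and 23.2 in the depleted arrays and 15.9 in wild type, higher in both (log2 difference 0.43, SE 0.44, limma adjusted p = 0.9997). Oasl2 read 25.8 and 21.4 against 22.6, with wild type between the depleted arrays. Oas2 was too dim to test, at 0.547 and 0.532 against 0.455. Mx1, a GTPase that traps viral nucleocapsids and is known to be defective in most laboratory strains including C57BL/6, read 1.59 and 1.26 against 1.30. Mx2 was listed at 0.189 and 0.060 against 0.034, under the pseudocount of 0.248 in all 3 arrays. Bst2, or tetherin, which holds budding viruses at the cell surface, read 4.60 and 8.27 against 5.34 in wild type, lower in the first depleted array and higher in the second.

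The interferon-induced GTPases, which take part in defence against intracellular parasites and bacteria, read low in the first depleted array. Igtp, also called Irgm3, read 8.58 and 13.4 in the depleted arrays against 16.3 in wild type, with log2 differences of -0.91 and -0.28 (limma adjusted p = 0.9997 for the mean of -0.60, SE 0.46). Gbp2 read 0.725 and 1.43 against 1.29, and Iigp1, too dim to test, 0.187 and 0.753 against 0.658. In both the first depleted array was the lowest of the 3 and the second the highest. Gbp6 read 5.46 and 5.86 against 5.53, nearly level. A second Iigp1 probe set gave -1.25 and -0.16, and a second one of Gbp2 -0.81 and -0.08.

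The sensor and transcription factor genes split. Nlrc5, a relative of the class II transactivator that drives MHC class I genes, read 2.59 and 2.20 in the depleted arrays against 4.93 in wild type. Both depleted arrays were lower by a similar distance (log2 difference -0.98, SE 0.51, 95% interval -1.97 to 0.02, limma adjusted p = 0.9997), and in the second the difference was more than 2-fold, at -1.08. Stat2, the subunit of the interferon alpha, beta and lambda response complex that activates transcription, read 3.56 and 4.63 against 6.55 (log2 difference -0.66, SE 0.49, limma adjusted p = 0.9997). Its other probe set was lower in both as well, by -0.25 and -0.27, a smaller distance. Irf9, the DNA-binding subunit of that complex, read 8.92 and 4.12 against 6.59. On the log2(intensity + 0.248) scale Irf9 was the only tested member at least 2-fold apart between the depleted arrays, where 9.06% of all genes tested were; Tap1 and Psmb10, described below, lay just under that, at 0.98 and 0.995.

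Irf7, the factor that amplifies interferon alpha production, was higher in both depleted arrays, at 11.7 and 13.2 against 9.17 in wild type (log2 difference 0.43, SE 0.47, limma adjusted p = 0.9997). Ifih1, which encodes the RNA sensor MDA5, read 18.3 and 15.5 against 14.4. In the second depleted array its log2 difference was 0.11, under the median of all genes, and below 0 with the other 3 scalings. Irf1, the main factor of the interferon gamma response, read 26 and 32 against 29.2, with wild type between them. Socs1, which blocks JAK kinases, was dim, at 0.516 and 0.965 against 0.996. The factors of the response thus held members on both sides of wild type.

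**Figure D2:**
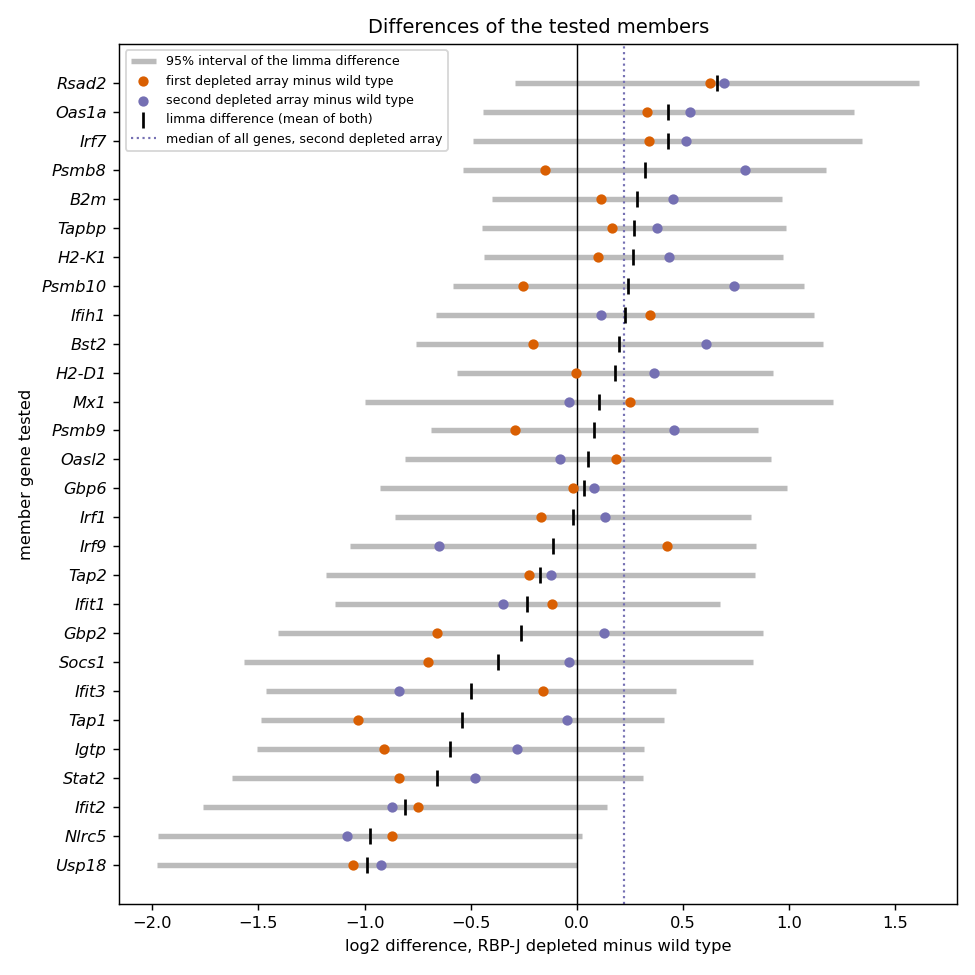
Log2 difference from wild type (horizontal axis) for each tested member, in order: points are the first (orange) and second (purple) RBP-J depleted array, the black tick is their mean and the grey bar its 95% interval from limma. All 28 intervals cross 0, and Nlrc5 and Usp18 come closest to leaving it.

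The chains that make up the class I molecule on the cell surface were level in the first depleted array and higher in the second. B2m, the invariant light chain, read 136 and 172 in the depleted arrays against 126 in wild type, and its second probe set gave nearly the same values. H2-K1 read 110 and 139 against 103, and H2-D1 71.9 and 92.6 against 72.0, these being the classical heavy chains of the strain. On the log2 scale the 3 genes lay between -0.002 and 0.11 in the first depleted array and between 0.36 and 0.45 in the second. Less the median of all genes, they lay between 0.14 and 0.23 in the second. The medians of the 3 genes were -0.02 and 0.05 with quantile normalization, 0.15 and 0.24 after 75th percentile scaling, and 0.10 and 0.17 after bright-gene scaling. None was called (limma adjusted p = 0.9997 for each), and the 95% interval for B2m ran from -0.40 to 0.97. The spread behind it takes in the shift between the depleted arrays. For B2m the log2 difference was 0.28 (SE 0.35) as deposited and 0.08 (SE 0.12) with quantile normalization, and B2m was not called with either.

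H2-K1 and H2-D1 are related genes, and most of their probe sets carry the suffix for sequences shared with other transcripts, so which heavy chain each one reads is uncertain. H2-D1 had 9 probe sets and H2-K1 had 4. The H2-D1 probe set without that suffix that was bright gave 44.5 and 48.8 against 37.5 in wild type, or 0.25 and 0.38. One probe set of H2-K1 gave -0.30 and 0.77, and dim ones of H2-D1 went either way.

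Of the genes that cut and carry peptides for class I, the immunoproteasome subunits had wild type between the depleted arrays. Psmb8, Psmb9 and Psmb10 encode the catalytic subunits that interferon gamma swaps into the proteasome. Psmb8 read 19.5 and 37.7 in the depleted arrays against 21.7 in wild type, Psmb10 read 25.6 and 51.3 against 30.6, and Psmb9 read 46.7 and 78.7 against 57.2. In each the first depleted array was the lowest and the second the highest. A second, dim probe set of Psmb8 gave -0.36 and -0.03, with wild type above both depleted arrays. The log2 distances between the depleted arrays were 0.94 for Psmb8, 0.995 for Psmb10 and 0.75 for Psmb9.

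Tap1, a subunit of the transporter that brings peptides into the endoplasmic reticulum, read 4.37 and 8.87 in the depleted arrays against 9.18 in wild type. It was more than 2-fold lower in the first depleted array, at -1.03, and level with wild type in the second, at -0.05 (limma adjusted p = 0.9997 for the mean of -0.54, SE 0.48). Tap1 starts from the same DNA as Psmb9, shown above. In both genes the first depleted array was the lowest of the 3, as in 42.6% of all genes tested. In the second depleted array Psmb9 was above wild type, at 0.46, and Tap1 was not. Whether the shared start bears on their values was not tested. Dim probe sets of Tap1 gave -0.94 and 0.63, 0.35 and 0.19, and 0.14 and 0.46. Tap2, its partner, read 2.54 and 2.75 against 3.01, and Tapbp, or tapasin, which bridges the transporter and the class I chain, read 102 and 118 against 91.2. A dimmer Tapbp probe set gave -0.14 and 0.43.

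All 6 peptide supply members and all 3 class I chains read higher in the second depleted array than in the first, as did 66.9% of all genes tested. The same held for 14 of 14 constitutive proteasome subunits and for 9 of 9 genes of peptide loading and the proteasome activator, lists in which 0 genes were called by limma and 0 had an unadjusted p under 0.05. With each of the other 3 scalings it held for 4 of 6 peptide supply members, 3 of 3 class I chains, 11 of 14 constitutive subunits and 9 of 9 loading genes, against 50.8%, 49.5% and 47.3% of all genes with quantile, 75th percentile and bright-gene scaling. Their medians were -0.14 and 0.45 for the constitutive subunits and -0.03 and 0.47 for the loading genes, against -0.24 and 0.42 for the peptide supply members. Psmb5, the constitutive counterpart of Psmb8 and chosen after its values were seen, read 5.98 and 15.4 against 9.49, and Psmb6, that of Psmb9 and likewise chosen, 18.9 and 34 against 19.97. Psmb7, the constitutive counterpart of Psmb10, read 33.4 and 36.1 against 41.0. It was lower than wild type in both depleted arrays, where Psmb10 was lower in the first only. Of the other genes named by rule, Psma6 read 54.9 and 62.0 against 44.2 and Psmb3 27.8 and 37.8 against 23.8. Psma5 read 28.4 and 29.2 against 32.7. The loading genes Canx and Calr, lectin chaperones, read 43.6 and 53.6 against 36.5 and 74 and 98 against 69.7, and Psme1, of the proteasome activator, 45.3 and 61.4 against 42.1. With quantile normalization the 3 medians in the second depleted array were 0.10 for constitutive subunits, 0.17 for loading genes and 0.02 for peptide supply.

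**Figure D3:**
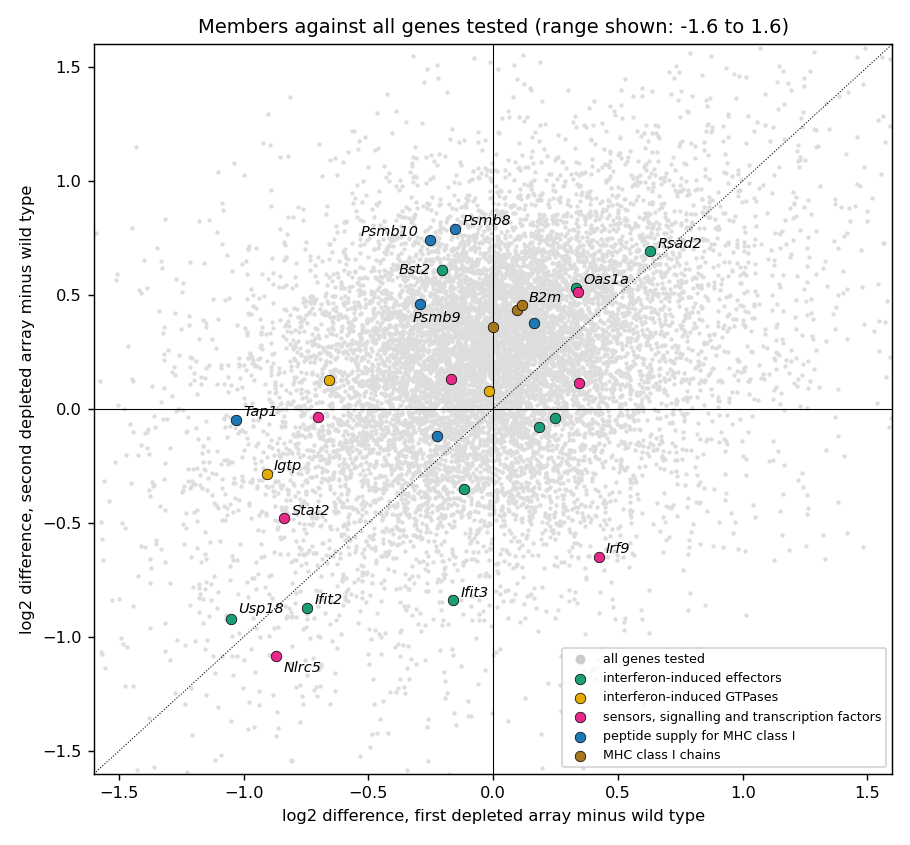
Log2 difference of the first (horizontal) and second (vertical) RBP-J depleted array from the same wild type array; grey points are all genes tested within the range shown and coloured points are members by role. Psmb8, Psmb9, Psmb10 and Bst2 stand at the upper left, Nlrc5, Usp18 and Ifit2 at the lower left near the diagonal, and Irf9 farthest to the lower right.

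Counted by array, 10 of the 28 tested members exceeded wild type in the first depleted array, where 49.8% of all genes were, and 15 in the second, where 69.7% were. The median log2 difference of the members was -0.16 and 0.10, against -0.003 and 0.22 over all genes tested. Set against those medians, 13 members were under their array's median in both depleted arrays and 7 above it in both, where each held for 29.9% of all genes. With quantile normalization wild type lay above both depleted arrays for 12 members and below both for 4, where these held for 29.4% and 31% of all genes. Scaling to the same 75th percentile gave 12 and 7, against 26% and 34.3%, and scaling to a common median of the genes averaging 5 or more gave 13 and 7, against 31% and 29.1%. No test was made of these counts, since the members were chosen with earlier results known.

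A difference of at least 2-fold that both depleted arrays showed in 1 direction was reached by 0 of 28 members and by 1.33% of all genes tested. In the first depleted array alone 2 members, Usp18 and Tap1, were at least 2-fold from wild type, where 6.42% of all genes were, and in the second 1, Nlrc5, where 5.2% were. These shares lie near or under those of all genes. For 8 of the 28 members, B2m and Psmb9 among them, the 95% interval of the difference lay within 2-fold in either direction, and the widest interval spanned 2.40 on the log2 scale. The intervals rest on a spread taken from the 2 depleted arrays and pooled over genes, and assume that wild type arrays vary as much.

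The 3 interferon genes measured were too dim to test. Ifnl2 and Ifnl3, which encode interferon lambda, and Ifne and Ifnk had no probe set that named them alone, so they were not measured here. Ifnb1 was listed at 0.155 and 0.110 in the depleted arrays and 0.279 in wild type, Ifna4 at 0.048 and 0.045 against 0.140, and Ifng at 0.426 and 0.318 against 0.670. All 3 had a mean under the tested range, so their order was not read.

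The receptor chains were bright enough to test and none was called. Ifnar2, of the interferon alpha and beta receptor, read 13.2 and 14.8 in the depleted arrays against 9.84 in wild type, and its partner Ifnar1 5.37 and 6.09 against 5.23. Ifngr2, of the interferon gamma receptor, read 33.1 and 49.1 against 25.6 (log2 difference 0.65, SE 0.42, limma adjusted p = 0.9997), and Ifngr1 18.6 and 23.1 against 17.2. Il10rb, shared by the interferon lambda and interleukin 10 receptors, read 11.1 and 10.7 against 8.45, while Ifnlr1, the chain specific to interferon lambda, was higher in the first depleted array, at 1.87 and 0.974 against 0.970. Read by the brightest probe set, wild type was the lowest of the 3 arrays for these 6 chains, as for 39% of all genes tested. In the whole list of ligands and receptors this held for 7 of the 12 genes tested. With the mean of each gene's probe sets it held for 4 of 12, against 37.3% of all genes. Some of the 6 chains therefore lost this order. In the second depleted array Ifnar1, at 0.21, and Ifnlr1, at 0.005, lay under the median of all genes. Socs3, a feedback inhibitor of cytokine receptors, read 4.14 and 3.79 against 7.35 (log2 difference -0.85, SE 0.49, limma adjusted p = 0.9997). The list of ligands and receptors had 12 genes tested, 0 called and 0 with an unadjusted p under 0.05, with medians of 0.22 and 0.27. With the mean of each gene's probe sets its medians were -0.05 and 0.195.

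Of 14 tested genes of nucleic acid sensing, 0 were called by limma and 0 had an unadjusted p under 0.05, and their medians, 0.02 and 0.22, lay near those of all genes. Ikbke and Tbk1, the kinases that activate IRF3 and IRF7, read 5.77 and 5.41 against 3.12 in wild type and 22 and 20.4 against 15.5. Myd88, the adaptor of most Toll-like receptors, read 4.004 and 4.69 against 6.79. The repressor Irf2 read 14.4 and 15.8 against 11.9. Both kinases and Irf2 thus read above wild type, and Myd88 below it, in both depleted arrays.

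Among 39 other interferon-induced genes tested, 0 were called and 1, Isg20, had an unadjusted limma p under 0.05, with medians of -0.03 and 0.18. Wild type lay below both depleted arrays for 13 of them and above both for 9, or 33.3% and 23.1%, near the 39% and 19.5% of all genes, and for 11 and 14, 14 and 14, and 9 and 15 with the other 3 scalings. Irgm1, a relative of Igtp, read 2.78 and 2.61 in the depleted arrays against 5.14 in wild type (log2 difference -0.87, SE 0.50, limma adjusted p = 0.9997). Ifi27l2a read 3.62 and 4.74 against 8.24. Ifitm1, which hinders virus entry, was higher, at 2.10 and 2.47 against 1.22. Isg20, an exonuclease, read 1.52 and 0.502 against 0.071, where the wild type value is lower than the pseudocount, on which its log2 differences of 2.47 and 1.23 depend. The named genes again stood on both sides of wild type, in a list whose medians lay near those of all genes.

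Other class I and class I-like genes had medians of -0.35 and 0.09, with no shared direction. H2-Q10, a secreted class I gene, read 4.16 and 4.12 in the depleted arrays against 9.94 in wild type, more than 2-fold lower in both (log2 difference -1.22, SE 0.49, limma adjusted p = 0.9997). H2-Q2, chosen after its values were seen, read 3.28 and 24.5 against 25.5, so that the first depleted array stood far below the other arrays (-2.87 and -0.05, limma adjusted p = 0.730 for the mean of -1.46, SE 0.47). Cd1d1, which presents lipids to natural killer T cells, read 2.15 and 1.41 against 0.856, and H2-T3, the thymus leukaemia antigen of intestinal epithelium that binds CD8 alpha, 18.8 and 12.5 against 10.5. H2-T24 read 3.05 and 4.37 against 5.004. The class I loci are closely related in sequence, and which of them a probe set reads is uncertain. Of the 6 genes of this list tested, 0 were called, and 2, H2-Q10 and H2-Q2, had an unadjusted limma p under 0.05.

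B cell markers were low in the first depleted array. The 7 B cell markers tested summed to 17.2 and 39.2 in the depleted arrays against 39.8 in wild type, with median log2 differences of -1.21 and -0.36, and wild type was above both for 4 of 7 and below both for 1, against 19.5% and 39% of all genes. When each gene's probe sets were averaged, the medians were -0.90 and 0.10, and wild type was above both for 3. Ms4a1, the gene of CD20, read 4.12 and 6.73 against 11.1. Siglech, the defining marker of plasmacytoid dendritic cells, which release interferon alpha and also express Bst2, read 0.582 and 2.85 against 3.99. Its log2 difference in the first depleted array, -2.35, was the lowest of its list; of the 7 genes, 2 were lower in both depleted arrays and 2, Klk1 and Cox6a2, higher in both, and they summed to 42.8 and 59.9 against 46.2. Of the 28 tested members, 14 had the first depleted array as the lowest of the 3, where 42.6% of all genes did. These were Bst2, Gbp2, Gbp6, H2-D1, Igtp, Irf1, Psmb8, Psmb9, Psmb10, Socs1, Stat2, Tap1, Tap2 and Usp18. In 7, Ifit1, Ifit2, Ifit3, Irf9, Mx1, Nlrc5 and Oasl2, the second was the lowest, as in 18.3% of all genes. Lymphocytes express MHC class I and the immunoproteasome as well, and the part of these cells in the members' values was not tested.

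The 9 markers of T cells and intraepithelial lymphocytes tested summed to 51.4 and 68.4 in the depleted arrays against 59.0 in wild type. The 6 of macrophages and dendritic cells summed to 65.0 and 83.0 against 64.9. Gzma made up most of each T cell sum, and Lyz2 most of each macrophage and dendritic cell sum. Median log2 differences were -0.143 and 0.328 for the T cell list, and 0.186 and 0.599 for the macrophage and dendritic cell list. In the latter 3 of 6 genes were higher in both depleted arrays and 0 lower in both. When each gene's probe sets were averaged, its medians were -0.064 and 0.489. Of the endothelial markers 1 of 6 was bright enough to test, and of the stromal ones 2 of 7, so most of these cells' markers were dim, although no marker was listed at exactly 0. The 9 M cell and follicle epithelium markers summed to 371 and 498 against 350. In bulk RNA, fewer cells of a type and less RNA per cell cannot be told apart.

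**Figure D4:**
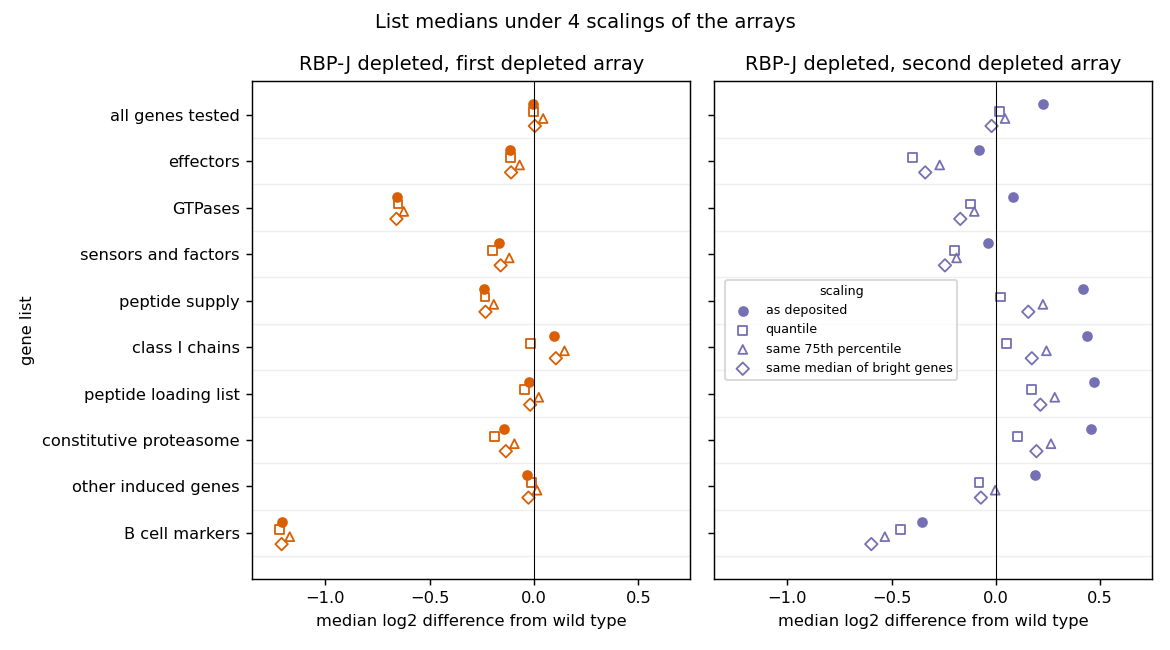
Median log2 difference from wild type of each gene list (rows) in the first (left, orange) and second (right, purple) RBP-J depleted array; filled circles use the deposited values and open symbols 3 other scalings. In the second array each median shown is lower with the other scalings, and that of the effector members is -0.40 with quantile normalization, against -0.11 in the first array.

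The list medians show what scaling does to the second depleted array. Over all genes its median was 0.22 as deposited and 0.02 with quantile normalization, and the effector members had -0.08 as deposited and -0.40 with quantile normalization. In the first depleted array the effector median was -0.12 as deposited and -0.11 with quantile normalization. Of the 10 members for which wild type was above both depleted arrays, 9 kept that order in all 7 other settings, and Tap1 lost it with the mean of its probe sets. Of the 7 for which it was below both, 4 kept it: B2m, Irf7, Oas1a and Rsad2. H2-K1 and Tapbp lost it with quantile normalization, and Ifih1 with all 3 scalings. These counts do not compare how firm the 2 directions are. Pseudocounts cannot change such an order, nor can the probe set choices for genes with a single probe set. The 3 scalings lower the second depleted array, which keeps wild type above both more readily than below both.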

How the data were processed

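Intensities on a linear scale, 1 for each probe set of each array, were made by the authors with MAS5, per the submitters' processing notes, from biotin-labelled cRNA. Each array has a median of 1. No detection calls, scanner files or scan times were used here. The number of arrays limits the precision.

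Of 45037 probe sets that are not controls, 34945 had 1 symbol in the platform annotation, 932 had several and 9160 were not listed. Genes were represented by their brightest probe set. Values were used as log2(intensity + 0.248), with the 25th percentile of the table as pseudocount, a scale that understates the folds of dim genes. The 11885 genes with a mean of at least 0.598, the 40th percentile, were fitted in R 4.3.3 with limma 3.58.1 (lmFit, eBayes with trend), with Benjamini-Hochberg adjustment over all of them, a call at an adjusted p under 0.05, and 1 residual degree of freedom to which 600.5 prior ones were added. The code was tested on simulated data.

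The members, gene lists and tests were chosen with earlier results of these data known. Members may all be named; of each other list, up to 4 tested genes with the largest smaller difference on the same side of wild type in both depleted arrays, every receptor chain, Rbpj and cell type markers. Promoters are from RefSeq, GRCm38.p6. Alternatives were other pseudocounts, filters, scalings, probe set choices and spread models, and each depleted array alone.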

Additional observations from a re-analysis of the deposited data

How the results depend on the processing

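No member was called under any of the 10 alternatives that allow a test. The number of genes called over the whole table was 10. It was 1 without a filter on intensity and 6 when filtering at the 60th percentile. Quantile normalization gave 3, scaling to a common 75th percentile 4, and scaling to a common median of bright genes 5. Members with a 2-fold or larger difference in both depleted arrays numbered 0, and 1, Usp18, with each of those 3 scalings; counted in 1 depleted array alone they numbered 1 to 2. The median log2 difference of the members was 0.04, and -0.14 with quantile normalization; from each depleted array alone it ranged from -0.16 to 0.10. Directions turned for genes close to 0. With quantile normalization Oasl2 gave -0.12, Gbp6 -0.050, Psmb9 -0.16 and H2-D1 -0.070. With the same 75th percentile Oasl2 gave -0.019 and Gbp6 -0.037, and with the same median of bright genes Oasl2 gave -0.074, Gbp6 -0.091 and Psmb9 -0.045. Scaling lowers the second depleted array as a whole, by construction. The other 267 values of members under these alternatives kept their direction and stayed uncalled. No paired analysis was possible because there is a single wild type sample. Signal limits Oas2, Mx2 and Iigp1, which averaged under the tested range.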
